A study of Mus musculus with 12 samples.

Results

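Apoe is 1 of the 50 linear RNA probes on a mouse circRNA microarray that also carries 14236 circRNA probes. It was taken as the probe A_51_P171999, whose transcript accession belongs to Apoe in the RefSeq gene table. Its level on an array is the mean log2 intensity of its 10 spots minus the 75th percentile of the log2 intensity over the circRNA probes of that array. Apoe was chosen by its measured levels over the 12 arrays, so these levels and the differences made from them are described here without a test.

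RNA came from left ventricles of 12 C57BL/6J mice, with 1 array per mouse and 3 mice per group. All mice carried the GRK-beta1AR transgene, a mutant beta1-adrenergic receptor without GRK phosphorylation sites that is expressed in the heart. TG mice carried this transgene alone, and double transgenic (DTG) mice also carried a miR-150 transgene driven by the CAG promoter, which is active in most tissues. TG and DTG mice received vehicle, which is ascorbic acid in saline, or isoproterenol (ISO), an agonist of beta-adrenergic receptors, at 3 mg/kg/day for 7 days. The methods give mini-osmotic pumps as the route, whereas the design text names an injection. In each group 1 mouse was female and 2 were male. Over all groups, ages ran from 9 to 12 weeks. They were 9, 9 and 12 weeks in TG vehicle mice and 9, 10 and 10 in TG ISO mice. In DTG vehicle mice all were 10 weeks, and in DTG ISO mice they were 10, 11 and 12.

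Apolipoprotein E, the protein that Apoe encodes, is carried on lipoprotein particles in plasma and binds receptors of the LDL receptor family, through which cells take up lipid. The liver makes most of the plasma protein, and macrophages and other cells in many tissues make it as well. Apoe mRNA is linear, and RNase R, which digests RNA from a free end, was applied before labeling to enrich circRNA. The values therefore measure the Apoe RNA left after RNase R and not the level of Apoe mRNA in the ventricle. In whole ventricle, fewer cells that make Apoe and less Apoe RNA per cell cannot be told apart.

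Apoe was high on 3 arrays and low on 9. The 3 high arrays were from TG vehicle mouse 3, TG ISO mouse 1 and TG ISO mouse 2. They came from both treatments, and none came from a DTG mouse. In TG vehicle mice, the Apoe level was 2.52, 2.25 and 4.81 log2 units over the 75th percentile for mice 1, 2 and 3. In TG ISO mice, it was 4.90, 4.97 and 2.48. Each TG group thus held at least 1 mouse on either side of a wide gap. In DTG vehicle mice, the Apoe level was 2.08, 2.36 and 1.96. In DTG ISO mice, it was 2.16, 2.37 and 2.34. The 6 DTG mice lay close together.

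**Figure D1:**
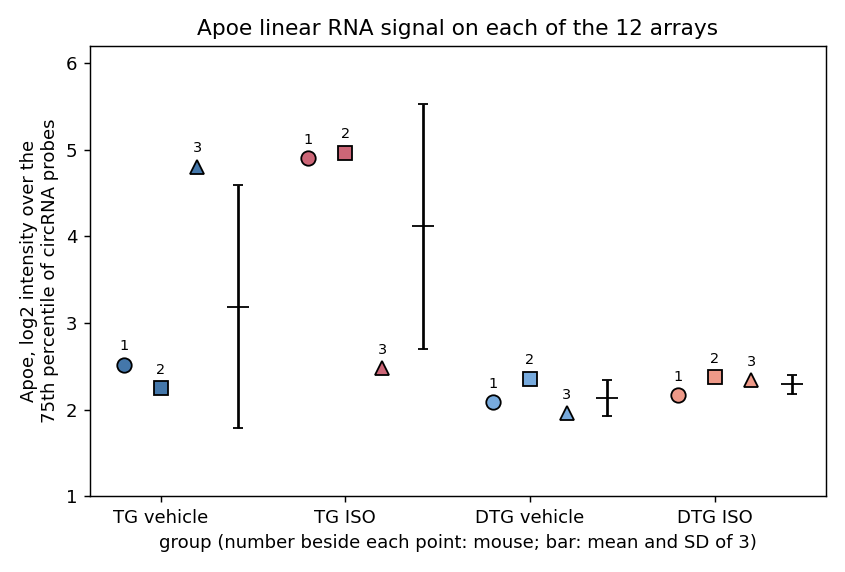
Apoe level on each array (log2 intensity over the 75th percentile of the circRNA probes) by group, with the mouse number beside each point and the group mean ± SD (n = 3) to the right. TG vehicle mouse 3 and TG ISO mice 1 and 2 lie between 4.81 and 4.97, and the other 9 mice between 1.96 and 2.52.

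When the 12 levels were put in order, the widest gap between neighbours was 2.29 log2 units, or 4.89-fold, and it lay between TG vehicle mouse 1 at 2.52 and TG vehicle mouse 3 at 4.81. The next widest gap was 0.13. The 9 levels below the gap spanned 0.56 log2 units and the 3 above it spanned 0.16. The whole range was 3.01 log2 units. Among the other 49 linear RNA probes, the range over the 12 arrays had a median of 2.08 log2 units, and 9 probes had a wider range than Apoe. Some of these 9 were not well above background on every array, so part of their range comes from dim signal.

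By group mean, the order from low to high was DTG vehicle at 2.13 ± 0.21 (SD, n = 3), DTG ISO at 2.29 ± 0.11, TG vehicle at 3.19 ± 1.41 and TG ISO at 4.12 ± 1.42. Each pair of neighbours in this order overlapped: the highest DTG vehicle mouse was above the lowest DTG ISO mouse, TG vehicle mouse 2 was below the highest DTG ISO mouse, and TG ISO mouse 3 was below TG vehicle mouse 3. The SD in each TG group rests on the position of 1 mouse. With 2 mice on one side of the gap and 1 on the other, neither TG mean lies near the level of any TG mouse.

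The Apoe spots were well measured on every array. All 10 spots were well above background on each of the 12 arrays, 0 were saturated, and 3 of the 120 spots were marked as outliers by the software and left out. The SD between spots of an array was 0.015 to 0.046 log2 units, far below the gap between the mice. Without scaling, the Apoe intensity was 11855 units for TG vehicle mouse 3, 3335 for TG ISO mouse 2 and 2400 for TG ISO mouse 1. It was between 583 and 794 on the other 9 arrays. The lowest of the 12 was TG ISO mouse 3. The Apoe intensity was between 17.2 and 292 times that of the brightest negative control probe of the same array, and the brightest such probe gave 16.1 to 51.2 units.

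**Figure D2:**
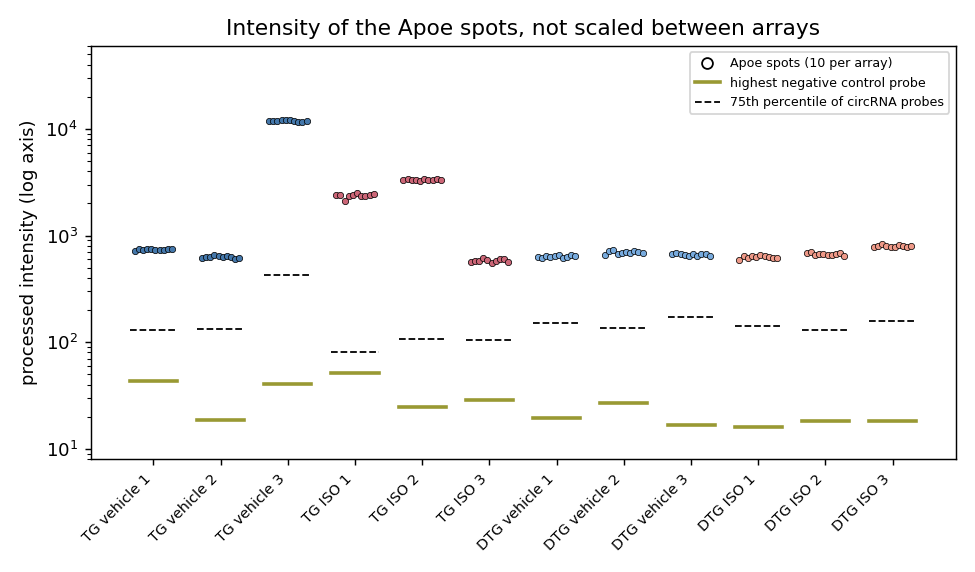
Processed intensity of the 10 Apoe spots on each array (log axis, not scaled between arrays), with lines for the brightest negative control probe and for the 75th percentile of the circRNA probes. The spots of an array lie close together, and the spots of TG vehicle mouse 3, TG ISO mouse 1 and TG ISO mouse 2 lie above those of the other 9 arrays.

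The arrays themselves differed, and these values stand beside the Apoe levels. The 75th percentile of the circRNA probes was 424 intensity units for TG vehicle mouse 3, 80.3 for TG ISO mouse 1 and 107 for TG ISO mouse 2, against 105 to 171 on the other arrays. The high Apoe levels thus came from the brightest array, the dimmest one and one near the dim end. The rank correlation of an array's circRNA levels with those of the other 11 arrays had a median of 0.865 for TG vehicle mouse 3, 0.884 for TG ISO mouse 1 and 0.927 for TG ISO mouse 2. It was 0.923 for TG vehicle mouse 1, whose Apoe level was low, and 0.967 to 0.979 for the other 8. The mean of the 14 circRNA control probes was -0.06 log2 units for TG vehicle mouse 3 and 1.36 to 2.24 elsewhere. The part of these array differences in the Apoe levels was not tested.

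The same 3 arrays were highest under each of the 9 other ways to scale, correct or average the intensities, and the gap below them was 1.60 to 2.32 log2 units. Scaled to the median of the other linear RNA probes, the Apoe level was 6.80 for TG vehicle mouse 3, 6.68 for TG ISO mouse 1 and 7.18 for TG ISO mouse 2. On that scale it was 4.32 to 5.03 for the other 9 mice. The gap was therefore still present on that scale. The scale itself rests on dim signal, since this median lay at -2.74 to -1.77 log2 units against the 75th percentile. For TG ISO mice 1, 2 and 3 and TG vehicle mouse 1, it was dimmer than the brightest negative control probe of the array. Whether linear RNA differed in general between the arrays was not tested.

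The labels and the scan files give sex, age and slide. The 3 mice with high Apoe were a female of 9 weeks (TG ISO mouse 1), a male of 10 weeks (TG ISO mouse 2) and a male of 12 weeks (TG vehicle mouse 3). Of the other 3 females, each had an Apoe level between 2.08 and 2.52. The 12 arrays lay on 2 slides, distinguished by the image identifier in the files. The 3 DTG ISO mice and DTG vehicle mouse 3 were on slide 1, with 4 arrays, and the remaining 8 arrays were on slide 2. The 3 high arrays were on slide 2, at the numbered positions 3, 4 and 5, and the arrays at positions 1, 2, 6, 7 and 8 were low. The numbers run along 1 row and then the next, so consecutive numbers need not be adjacent on the slide. The part of the position on the slide was not tested.

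ISO treatment was first compared with vehicle in TG mice (comparison I). The mean Apoe level was 4.12 in TG ISO and 3.19 in TG vehicle mice, a difference of 0.93 ± 0.70 log2 units (SE from the limma fit, 3 mice per group) or 1.90-fold. The groups overlapped, since TG ISO mouse 3 was below TG vehicle mouse 3. All 6 arrays were on slide 2. The difference was 1.74 without TG vehicle mouse 3 and 1.75 without TG ISO mouse 3, and it was 0.45 to 0.59 without any other of the 6. Without scaling it was -0.08, and with the circRNA control probes as the scale it was 0.02, so the direction depended on the scale.

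DTG ISO mice were next compared with TG ISO mice (comparison II), which share the TG ISO arrays with comparison I. The mean Apoe level was 2.29 in DTG ISO and 4.12 in TG ISO mice, a difference of -1.82 ± 0.70 log2 units or 3.54-fold lower in DTG ISO. The groups did not overlap: the highest DTG ISO mouse was at 2.37 and the lowest TG ISO mouse at 2.48. Of the 12988 probes with a value on all 6 arrays, 28.5% were likewise lower in every DTG ISO mouse than in every TG ISO mouse. The groups overlapped under 4 of the 9 other settings, which were scaling to the other linear RNA probes, scaling to the circRNA control probes, no scaling and normexp background correction. The difference lay between -2.64 and -1.40 when 1 of the 6 arrays was left out, and it was -2.48 with age as a term. With slide as a term it was -1.56, and its SE widened to 1.33. The 3 DTG ISO arrays were on slide 1 and the 3 TG ISO arrays on slide 2, so slide and genotype cannot be told apart within this pair of groups.

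In DTG mice, ISO was compared with vehicle (comparison III). The mean Apoe level was 2.29 in DTG ISO and 2.13 in DTG vehicle mice, a difference of 0.16 ± 0.70 log2 units or 1.12-fold. The groups overlapped. The SE is shared by all 4 groups and is set by the wide TG groups; fitted to the 6 DTG arrays alone, it was 0.17. Within slide 1, the 3 DTG ISO mice exceeded the single DTG vehicle mouse by 0.34. The difference was -0.12 with the circRNA control probes as the scale and -0.33 with age as a term.

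DTG vehicle mice were then compared with TG vehicle mice (comparison IV). The mean Apoe level was 2.13 in DTG vehicle and 3.19 in TG vehicle mice, a difference of -1.06 ± 0.70 log2 units or 2.08-fold lower in DTG vehicle. The groups overlapped. Within slide 2, which held 2 DTG vehicle and all 3 TG vehicle mice, the difference was -0.97. Without TG vehicle mouse 3 it was -0.25. The response to ISO in DTG mice minus that in TG mice was -0.77 ± 0.99 log2 units for Apoe, and it was 0.14 without scaling.

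**Figure D3:**
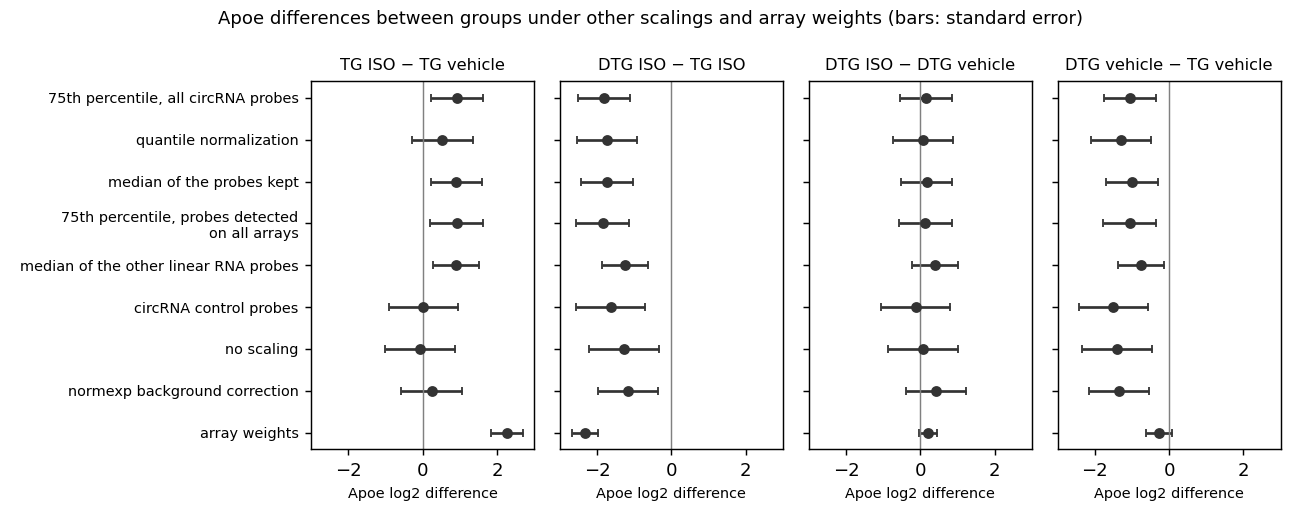
Difference in Apoe level (log2 units, points) and its SE (bars) between the groups of comparisons I to IV, under each scaling, the normexp background correction and array weights. DTG ISO lies below TG ISO under each setting drawn, between -2.33 and -1.17, while TG ISO minus TG vehicle runs from -0.08 without scaling to 2.27 with array weights.

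The other linear RNA probes are a reference for how far such probes moved, and 44 of the 49 passed the filter on dim probes. Their median difference was 0.17 log2 units in comparison I and -0.64 in II, and it was -0.24 in comparison III and -0.19 in IV. Over all probes tested, the median was 0.09 and -0.11, and then -0.02 and -0.04. By size, the Apoe difference ranked 11 of the 45 linear RNA probes in comparison I and 4 in comparison II, and it ranked 34 in comparison III and 3 in comparison IV. No other linear RNA probe passed the limit of 0.05 in any of the 4 comparisons (limma, adjusted p from 0.149 upward in II), where 0% of all probes passed in each. At an unadjusted p under 0.05, limma counted 7 of the 44 in comparison I (13.7% of all probes), 17 in comparison II (25.8%), 0 in comparison III (1.84%) and 2 in comparison IV (2.13%). In II, 15 of the 44 were lower in DTG ISO mice at this limit (16.3% of all probes), and 21 of the 44 were lower without overlap (28.5% of all probes).

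Among the linear RNA probes whose levels ran most like those of Apoe over the 12 arrays were Lhfp (Pearson r = 0.85), Lhx1 (r = 0.82), Actb (r = 0.76) and Bambi (r = 0.69). Bambi was dim, being well above background on only 8 of the 12 arrays. Lhx1 encodes a LIM homeobox transcription factor known from embryonic development, Actb encodes the cytoskeletal beta-actin, and Bambi encodes a pseudoreceptor that dampens TGF-beta signaling. The 3 least like Apoe were Acaa2 (r = -0.96), Ppara (r = -0.93) and Hspb7 (r = -0.74). Acaa2 encodes a mitochondrial enzyme of fatty acid beta-oxidation, Ppara a nuclear receptor that drives genes of fatty acid oxidation, and Hspb7 a small heat shock protein of heart and skeletal muscle. Of the 49 probes, 36 had r above 0 on the scale used here, and the median r was 0.27. This count holds for that scale alone, since r changed sign for some probes under other settings. With normexp background correction, r was -0.45 for Rab5a and -0.44 for Atg3, each 0.63 here. Scaled to the median of the other linear RNA probes, r of Gsdmd turned from 0.39 to -0.39. Scaled to the circRNA control probes, r of Prdx2 turned the other way, from -0.62 to 0.28. Among the circRNA probes with a value on every array, 1.34% had r above 0.9 and 1.87% had r below -0.9 with Apoe. The 12 points of each correlation share the arrays, their labeling and their scale, and r over them is set mostly by 3 arrays.

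Lhfp and Actb were the only 2 of the 49 whose 3 highest arrays were those of Apoe. The Lhfp level was 4.22 for TG vehicle mouse 3, 4.85 for TG ISO mouse 1 and 3.57 for TG ISO mouse 2, against 0.89 to 2.91 elsewhere. Within the other 9 arrays, r of Lhfp with Apoe was 0.27, so its likeness rests on the 3 high arrays. The Actb level was 4.53, 3.33 and 3.64 on the same arrays, against at most 2.97 elsewhere. Within the other 9 arrays, however, Actb ran against Apoe (r = -0.95), and its Spearman rho over the 12 was 0.17. Lhx1 was high for TG ISO mice 1 and 2, at 2.35 and 2.65. For TG vehicle mouse 3 it was at 0.71, within the range of the other 9 arrays.

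Acaa2 and Ppara were the only 2 of the 49 whose 3 lowest arrays were those where Apoe was highest. The Acaa2 level was -0.31 for TG vehicle mouse 3, -0.97 for TG ISO mouse 1 and -1.14 for TG ISO mouse 2, against 0.75 to 1.95 elsewhere. Within the other 9 arrays, Acaa2 still ran against Apoe (r = -0.76), and after the group means were taken off, r over the 12 was -0.94. The Ppara level was -0.44, 0.02 and 0.17 on the same 3 arrays, against 1.62 to 2.56 elsewhere. Within the other 9 arrays, Ppara ran with Apoe (r = 0.59). Without the 2 arrays whose Apoe level was farthest from the median, TG ISO mice 1 and 2, TG vehicle mouse 3 remained as the single high array. Over these 10 arrays, r with Apoe was 0.75 for Lhfp, 0.42 for Lhx1, 0.72 for Actb, -0.89 for Acaa2 and -0.88 for Ppara. Under the other 9 settings, the r of Acaa2 lay between -0.96 and -0.47 and that of Lhfp between 0.81 and 0.89. The r of Bambi turned to -0.46 with normexp background correction from 0.69. The r of Hspb7 was 0.10 with scaling to the circRNA control probes, -0.02 without scaling, -0.08 with normexp and -0.39 with quantile normalization, so its likeness depended on the scale.

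**Figure D4:**
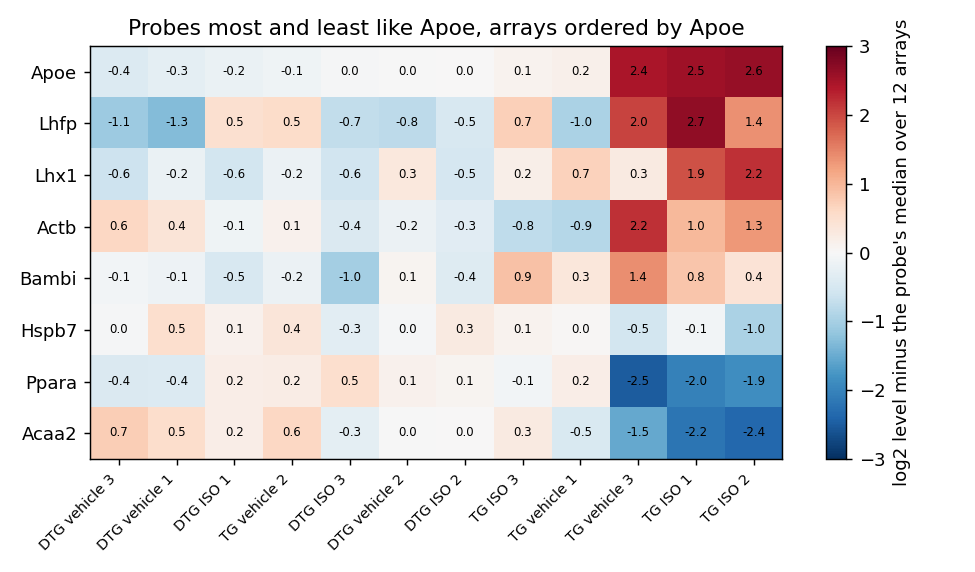
Level of Apoe and of 7 other linear RNA probes on each array, as log2 units from the probe's own median over the 12 arrays (colour and printed value), with the arrays in order of Apoe from low to high. Lhfp and Actb are high and Acaa2 and Ppara low on the 3 arrays at the right, TG vehicle mouse 3 and TG ISO mice 1 and 2.

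Of 61 other genes of lipoprotein and cholesterol transport, such as receptors, transporters and other apolipoproteins, 0 had a linear RNA probe on the array. The same held for each list of markers of macrophages and other leukocytes, cardiomyocytes, fibroblasts, endothelial cells, smooth muscle cells, hepatocytes and erythroid cells. The Apoe levels could therefore not be set beside those of its pathway or of the cells known to make it, and the labelled tissue could not be checked against these markers.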

How the data were processed

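Left ventricular RNA of 12 mice was treated with RNase R, labeled with Cy3 from random primers and hybridized to 1-color Arraystar mouse circRNA arrays. The authors deposited the spot intensity values of Agilent Feature Extraction version 11.0.1.1, background-corrected and not normalized between arrays. The submitters' processing notes also name limma.

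Groups, sex and age came from the sample labels, and dose, route and duration from the methods. Per the methods, mice matched for genotype and sex were assigned to groups at random, so treatment could be randomized but genotype could not. Samples within a group were different biological samples, so p-values measure the spread between mice. Spots marked as outliers were removed, log2 intensities of the 10 spots of a linear RNA probe were averaged, and the 75th percentile of the 14236 circRNA probes was subtracted. Symbols came from transcript accessions through the RefSeq gene table, which named 44 of the 50 linear RNA probes. No genome coordinates are given, since the builds differ.

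Probes well above background on at least 3 arrays were kept; for linear RNA probes, 5 of 10 spots had to be so on an array. One linear model over the 4 groups was fitted with limma version 3.58.1 in R version 4.3.3 to 13080 probes at most, since some had no spot left in a group, with Benjamini-Hochberg adjustment. The fit was tested on simulated data. Python version 3.11.15 was used for the correlations, with matplotlib version 3.10.9 for the figures.

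The probes named were Apoe, the 5 other linear RNA probes with a symbol and the highest Pearson r with Apoe, the 3 with the lowest, and any linear RNA probe on the gene lists, of which there were 0. Of the 8 probes beside Apoe, 1 is not reported here. Apoe and the gene lists were chosen with earlier results of these data known. The alternatives were other scalings, normexp (offset 50, on median spot and background intensities, as the files hold no mean), other spot averages, other filters, replicate number, slide, sex and age as terms, the 6 arrays compared, array weights, the methods' t-test and leaving out each array. The likeness under other scalings was added after seeing the data.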

Additional observations from a re-analysis of the deposited data

How the results depend on the processing

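The Apoe difference kept its direction in comparisons II and IV under each of the 21 alternatives run. Among these, the replicate block, sex as a term and the fit to the 6 arrays compared could not change it, since they leave the difference of group means as it is. In IV, age as a term could not change it either, since TG vehicle and DTG vehicle mice had the same mean age. The Apoe difference turned to -0.08 in I without scaling. In III it turned to -0.12 with the circRNA control probes as the scale and to -0.33 with age as a term. The difference of differences turned to 0.14 without scaling and to 0.18 with normexp. Array weights moved the Apoe difference in I to 2.27 and the difference of differences to -2.06; they gave TG vehicle mouse 3 the lowest weight, 0.089. When 1 array was left out, the Apoe difference lay between 0.45 and 1.75 in I, -2.64 and -1.40 in II, 0.07 and 0.27 in III and -1.53 and -0.25 in IV, and the difference of differences between -1.59 and -0.29. The other linear RNA probes that passed the adjusted limit were 0 in each comparison. Array weights raised this to 7 of 44 in I (12.8% of all probes) and 24 in II (45.8%), and a fit to the 6 arrays compared raised it to 16 in II (14.7%). Leaving out 1 array gave 0 to 2 in I and 0 to 3 in II, with the highest counts without TG ISO mouse 3 (1.11% and 10.3% of all probes). In III and IV the count of other linear RNA probes stayed 0 under each alternative. Array weights nevertheless brought 5.46% of all probes past the adjusted limit in comparison III, while the share for comparison IV was 0%. The methods' t-test counted 0, 19, 2 and 0 of the 44 at its unadjusted limit in I to IV (2.98%, 30.3%, 11.9% and 1.65% of all probes), and 0 after adjustment in each. With the replicate block, the Apoe differences stayed at 0.93, -1.82, 0.16 and -1.06, and the difference of differences at -0.77. The design fixes this, since every group holds each replicate number. The counts, which the block could change, stayed 0. Same-numbered arrays deviated together (r over 0.1) in 3 of 12 pairs, with r from -0.37 to 0.36. Deviations from means of 3 arrays cannot settle whether the numbers pair the mice, and the main fit did not pair them. The r with Apoe was reversed to -0.46 for Bambi with normexp and to 0.10 for Hspb7 with the circRNA control probes. Apoe was well above background on every array, and the number of arrays, 3 per group, limits the precision of each mean.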
